A study of Mus musculus with 11 samples.

Results

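The genes described here encode the proteins of the cytosolic ribosome. They were taken from the array's probe table as the single symbols made of Rpl or Rps and a number, with at most one closing letter (a, x, y or l), or of Rplp and a number, and 63 genes matched. Symbols with a longer ending, such as Rpl22l1, and the Rps6k kinases fall outside this rule. RefSeq lists Rpl6l and Rps4l among these as pseudogenes, and they were left out, which gave 61 of the 22180 genes measured: 22 of the small subunit (Rps) and 39 of the large subunit (Rpl and Rplp). A gene with several probe sets was represented by the one with the highest mean across the 9 arrays of whole stomach. A further 12 genes of the pattern, among them Rpl10, Rpl12, Rpl13a and Rps2, appeared only in probe sets that name several genes, and these were not counted as members. Rps27a, a ribosomal protein made as a fusion with ubiquitin, was not measured by a probe set of its own.

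The ribosome translates messenger RNA, and each of its subunits is built in the nucleolus and nucleus from ribosomal RNA and ribosomal proteins. Most ribosomal protein messenger RNAs begin with a cytosine followed by a run of pyrimidines, the terminal oligopyrimidine (TOP) motif, through which the kinase complex mTORC1 and its target LARP1 control their translation and stability. Rapamycin inhibits mTORC1. High-dose tamoxifen is known to damage the acid-secreting parietal cells of the mouse stomach, after which chief cells change towards a metaplastic state and the glands proliferate. Control through the TOP motif acts mainly on translation, and an array measures RNA levels, not translation.

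Affymetrix arrays measured total RNA from 11 samples of adult C57Bl/6 mice. No other allele or transgene is given in the labels. The 4 whole-stomach groups received daily injections into the peritoneum. Vehicle mice got sunflower oil (2 arrays). Tamoxifen mice got 5 mg of tamoxifen for each 20 g of body weight over 3 days (2 arrays). Rapamycin mice got 0.6 mg of rapamycin for each 20 g over 10 days (3 arrays), and the combination group got both drugs at those doses and times (2 arrays). The other 2 arrays each held 1 cell fraction, isolated parietal cells or the stomach cells left once parietal cells had been taken away, with no replicate. Per the labels these are biological replicates, without saying whether each is 1 mouse, so p-values measure only the spread between these samples.

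In the whole stomachs, the 12 ribosomal protein genes that passed the test all rose with tamoxifen, and none passed it with rapamycin. The tamoxifen effect was called only when averaged over the presence of rapamycin, where 3.24% of all genes were called higher. There 58 of 61 genes had a positive change, against 45.7% of all genes, and the median was 0.36 on the log2 scale. That count of 12 depended on which arrays were in the fit. Rapamycin, averaged over tamoxifen, gave a median change of -0.03, with 0.0496% of all genes called. In the separated cells, 53 of 61 genes had lower values in parietal cells than in the other cells, against 44.1% of all genes. The median log2 difference of the members was -0.57.

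The starts of the annotated transcripts were read from RefSeq (assembly GRCm38.p6) for the 48 members with an entry; 13 had none. A TOP start was counted where the annotated first base is C and at least 4 further pyrimidines (C or T) follow it on the transcribed strand. It was found in 11 members, Rpl14, Rpl15, Rpl28, Rpl32l, Rpl35, Rpl38, Rplp2, Rps10, Rps18, Rps27 and Rps6, which is 22.9% of the 48, against 3.01% of 27025 genes with an entry. An annotated start can lie some bases from the true cap site, so a member without the motif lacks these letters at this annotated position only. The 6 sequences below show what a TOP start looks like in the members the results turn on: Rps10, Rpl14 and Rpl35 passed the tamoxifen test, Rps6 is the substrate of the kinase downstream of mTORC1, and Rpl15 and Rplp2 carry the longest and shortest runs, of 13 and 5 bases. Each gives 10 bases before the start and 20 from it, and the capitals mark the pyrimidine run from the first transcribed base.
Rps10 (chr17:27635225-27635254, minus strand): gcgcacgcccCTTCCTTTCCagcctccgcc
Rpl14 (chr9:120571507-120571536, plus strand): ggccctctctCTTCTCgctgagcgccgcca
Rpl35 (chr2:39005112-39005141, minus strand): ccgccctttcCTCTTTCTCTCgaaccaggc
Rps6 (chr4:86857348-86857377, minus strand): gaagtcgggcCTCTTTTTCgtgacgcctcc
Rpl15 (chr14:18270967-18270996, minus strand): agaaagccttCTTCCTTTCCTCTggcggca
Rplp2 (chr7:141447641-141447670, plus strand): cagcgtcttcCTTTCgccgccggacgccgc

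The deposited values are log2 expression. Array medians were 4.95 to 5.09 in whole stomach, and those of the cell fractions were 3.67 and 3.68, so the fractions were set only against each other. Member levels fell into a high and a low set. With a dividing level of 9, chosen after the values were seen, 31 members were bright (mean over the 9 arrays 9.01 or more, up to 12.94 for Rpl21) and 30 were dim (8.30 or less, down to 2.81 for Rpl32l). Every bright member lay above the 90th percentile of all genes, 8.68, and 46 members lay above the median of all genes, 5.71. Genes of the core ribosome such as Rps14 (mean 5.66), Rpl11 (5.15), Rplp2 (4.31) and Rps15 (4.20) were among the dim ones. Probe sets differ in their response, so a level is compared only between arrays for the same probe set. Ribosomal protein genes also have many near-identical pseudogene copies, and a probe set can read more than 1 of them.

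Before any comparison, some arrays stood apart. Vehicle 2 had higher values than vehicle 1 for 46 of 61 members, with a median difference of 0.39, against 0.01 for all genes. That gap is larger than the tamoxifen change of most members. Tamoxifen 2 exceeded tamoxifen 1 for 39 members and by a median of 0.15, against 55.9% of all genes and a median of 0.06. Relative to the mean of the vehicle arrays, the median member stood at -0.19 on vehicle 1 and 0.19 on vehicle 2, at 0.27 and 0.39 on the tamoxifen arrays, at -0.04, -0.11 and -0.00 on the rapamycin arrays, and at 0.33 and 0.33 on the combination arrays. All 4 arrays with tamoxifen lay above the 5 without it. Vehicle 2 and tamoxifen 2 held identical values for several members, such as Rps28 (11.07), Rpl26 (6.65) and Rps14 (5.17). Tamoxifen 2 minus vehicle 2 had a median of 0 over all genes, with 39.4% positive. Identical values also occurred elsewhere, as for Rplp1 on both vehicle arrays (11.72). The tests took the arrays as independent, and the source of the shared values was not tested. On the scale of levels, the mean over the members ranged from 8.54 to 8.66 with tamoxifen alone and from 8.58 to 8.63 with both drugs, against 8.11 to 8.43 with vehicle and 8.17 to 8.28 with rapamycin alone.

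**Figure D1:**
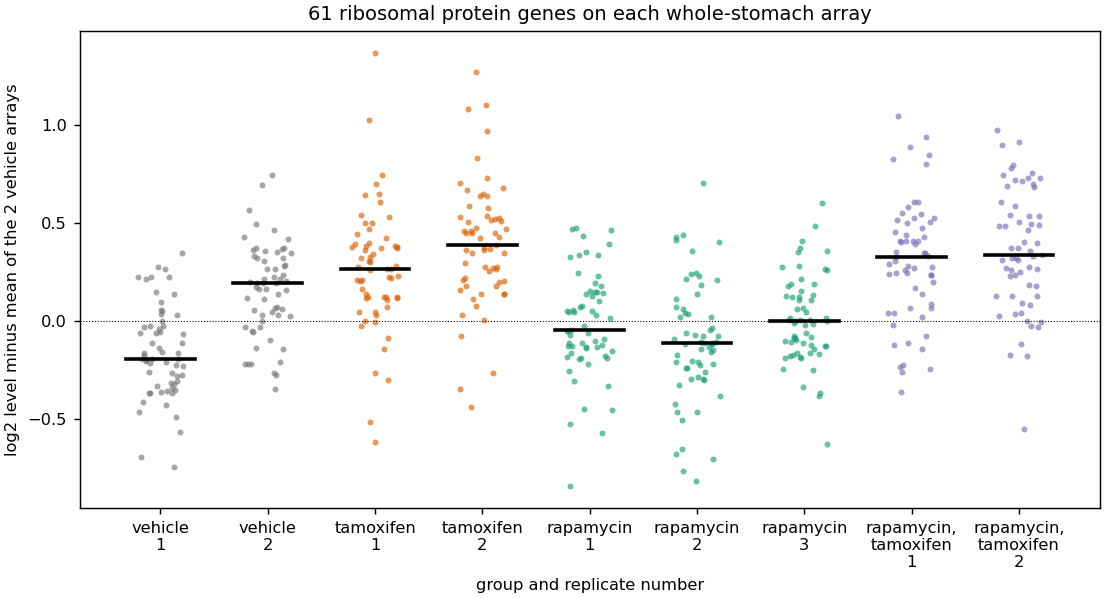
Log2 level of each of the 61 ribosomal protein genes (points) on each whole-stomach array, minus the mean of the 2 vehicle arrays, with the median of the 61 as a black bar. The bars of the 4 arrays with tamoxifen lie between 0.27 and 0.39, above the bar of vehicle 2 at 0.19, and the 3 rapamycin arrays lie between -0.11 and -0.00.

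Tamoxifen alone against vehicle asked whether the drug changed the genes in the whole stomach. No member passed the test, limma's moderated test with Benjamini-Hochberg adjusted p under 0.05 over all 22180 genes, where 1.72% of all genes were called. The members nevertheless leaned one way: 58 of 61 had a positive change, the median change was 0.33 (-0.02 for all genes), and 15 were higher and 0 lower at an unadjusted p under 0.05, a criterion met upwards by 6.15% and downwards by 4.77% of all genes. In 23 members both tamoxifen arrays lay above both vehicle arrays and in 0 below, against 13.4% of all genes above and 13.9% below. Fewer cells of a type and less RNA per cell cannot be told apart in whole tissue. The median rested on the vehicle arrays: without vehicle 1 it was 0.16, and without vehicle 2 it was 0.49.

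Of the 4 members with the smallest p in that comparison, Rpl17, a protein at the exit of the peptide tunnel, had levels of 5.38 and 5.83 with vehicle and 6.25 and 6.57 with tamoxifen, a change of 0.81 ± 0.209 (limma standard error, adjusted p = 0.115). The groups did not overlap. Rpl5, which binds 5S ribosomal RNA and with Rpl11 restrains the p53 inhibitor Mdm2, had levels of 6.27 and 6.16 with vehicle and 6.71 and 6.66 with tamoxifen (change 0.47 ± 0.124, limma adjusted p = 0.118). Rpl10a stood at 10.11 and 10.04 with vehicle and at 10.50 and 10.59 with tamoxifen (0.47 ± 0.126, limma adjusted p = 0.133). Rpl32 stood at 10.39 and 10.80 against 10.99 and 11.43 (0.61 ± 0.191, limma adjusted p = 0.21). In all 4 genes, picked by p on these same arrays, the lower tamoxifen array exceeded the higher vehicle array.

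Under rapamycin the same question was asked by setting the combination against rapamycin alone. Again 0 members were called, with 2.45% of all genes called. Positive changes were seen for 57 of 61, with a median of 0.37 (all genes -0.01), and 27 were higher and 0 lower at an unadjusted p under 0.05 (6.5% of all genes higher and 7.41% lower). Both combination arrays lay above all 3 rapamycin arrays in 46 members, against 18.7% of all genes. This comparison shares no array with tamoxifen against vehicle, and its rapamycin arrays lay closer together than the vehicle arrays did, with member means from 8.17 to 8.28.

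The smallest p-values there belonged to Rpl17, Rpl27, Rpl32 and Rps19. Rpl17 had levels of 5.80, 5.38 and 5.62 with rapamycin and 6.54 and 6.36 with both drugs (change 0.85 ± 0.191, limma adjusted p = 0.059). Rps19, a small-subunit protein whose loss causes Diamond-Blackfan anaemia in people, had levels of 9.56, 9.41 and 9.52 with rapamycin and 10.31 and 10.29 with both (0.81 ± 0.196, limma adjusted p = 0.0816). Rpl27 had a change of 0.62 ± 0.141 and Rpl32 one of 0.76 ± 0.174 (limma adjusted p = 0.065 and 0.0654). None of these groups overlapped, and none of the 4 passed the threshold. The count of members called was 4 when either vehicle array was left out and 1 when either tamoxifen array was, since those arrays share in the estimate of the spread, and 13 in a fit of the compared groups alone.

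Averaging the tamoxifen effect over the presence of rapamycin uses all 9 arrays, 4 with the drug and 5 without. Here 12 of 61 members were called, all higher, against 3.24% of all genes called higher and 5.85% called in either direction. At an unadjusted p under 0.05, 34 were higher and 0 lower (9.17% of all genes higher and 8.43% lower). Of the 1699 genes with a mean level above the same 9, 5% were called higher, with a median change of 0.02, and 9 of the 31 bright members were called, with a median of 0.41. In 18 members all 4 arrays with tamoxifen exceeded all 5 without it, and in 0 did they fall below, against 4.99% and 4.32% of all genes. These 18 were the 12 called genes with Rpl13, Rpl23a, Rplp1, Rps12, Rps6 and Rps7.

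Of the 12 called genes, 9 belong to the large subunit and 3 to the small subunit. Rpl17 rose by 0.83 ± 0.141 on the log2 scale, 1.78-fold (limma adjusted p = 0.0098), from levels of 5.38 to 5.83 on the 5 arrays without tamoxifen to 6.25 to 6.57 on the 4 with it. Rpl32 lay between 10.39 and 10.80 without the drug and between 10.99 and 11.43 with it, a rise of 0.69 ± 0.129 (limma adjusted p = 0.0159). Rpl27 lay between 9.49 and 9.74 without it and between 10.03 and 10.32 with it, a rise of 0.55 ± 0.105 (limma adjusted p = 0.0171). In each of these the tamoxifen arrays formed a separate band above the others, which adds no support since p on the same arrays picked them.

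Rpl5 rose by 0.44 ± 0.0843 (limma adjusted p = 0.0179). Its levels were 6.27 and 6.16 with vehicle and 6.07, 6.10 and 6.04 with rapamycin, and 6.71, 6.66, 6.49 and 6.45 on the tamoxifen and combination arrays. Rps19 rose by 0.71 ± 0.146 (limma adjusted p = 0.0241), although vehicle 2, at 9.88, came within the gap between vehicle 1 at 9.15 and the lowest tamoxifen array at 10.06. Rpl41, which encodes the smallest protein of the ribosome, lay between 11.93 and 12.24 without the drug and between 12.44 and 12.53 with it, a rise of 0.41 ± 0.0894 (limma adjusted p = 0.0311). The other 6, Rpl19, Rps10, Rpl10a, Rps4x, Rpl35 and Rpl14, rose by 0.38 to 0.49, with limma adjusted p from 0.034 to 0.0484.

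The count of 12 depended on every array. It was 5 without vehicle 1, 19 without vehicle 2, 6 without tamoxifen 1, 7 without tamoxifen 2, 2, 3 and 3 without rapamycin 1, 2 or 3, and 2 and 1 without combination 1 or 2. Of the called genes, Rpl17 kept its call in 8 of these 9 fits, Rpl32 in 7, Rpl27 and Rpl5 in 5, Rps19 in 3 and Rps10 in 2. Rpl41, Rpl19, Rps4x, Rpl35 and Rpl14 kept it in 1 fit each and Rpl10a in 0. Over those fits the median change of the 61 members stayed between 0.29 and 0.43. The share of all genes called in each of those fits is not given, and the 3.24% belongs to the main fit only. A fit with the replicate number as a block kept the call of Rpl17, Rpl32 and Rpl27 only. Of the genes that lost it there, Rpl5 had a limma adjusted p of 0.0602 and Rpl14 one of 0.117. Without vehicle 2 and tamoxifen 2 together, 22 members were called, including 10 of the 12, and the median was 0.41.

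**Figure D2:**
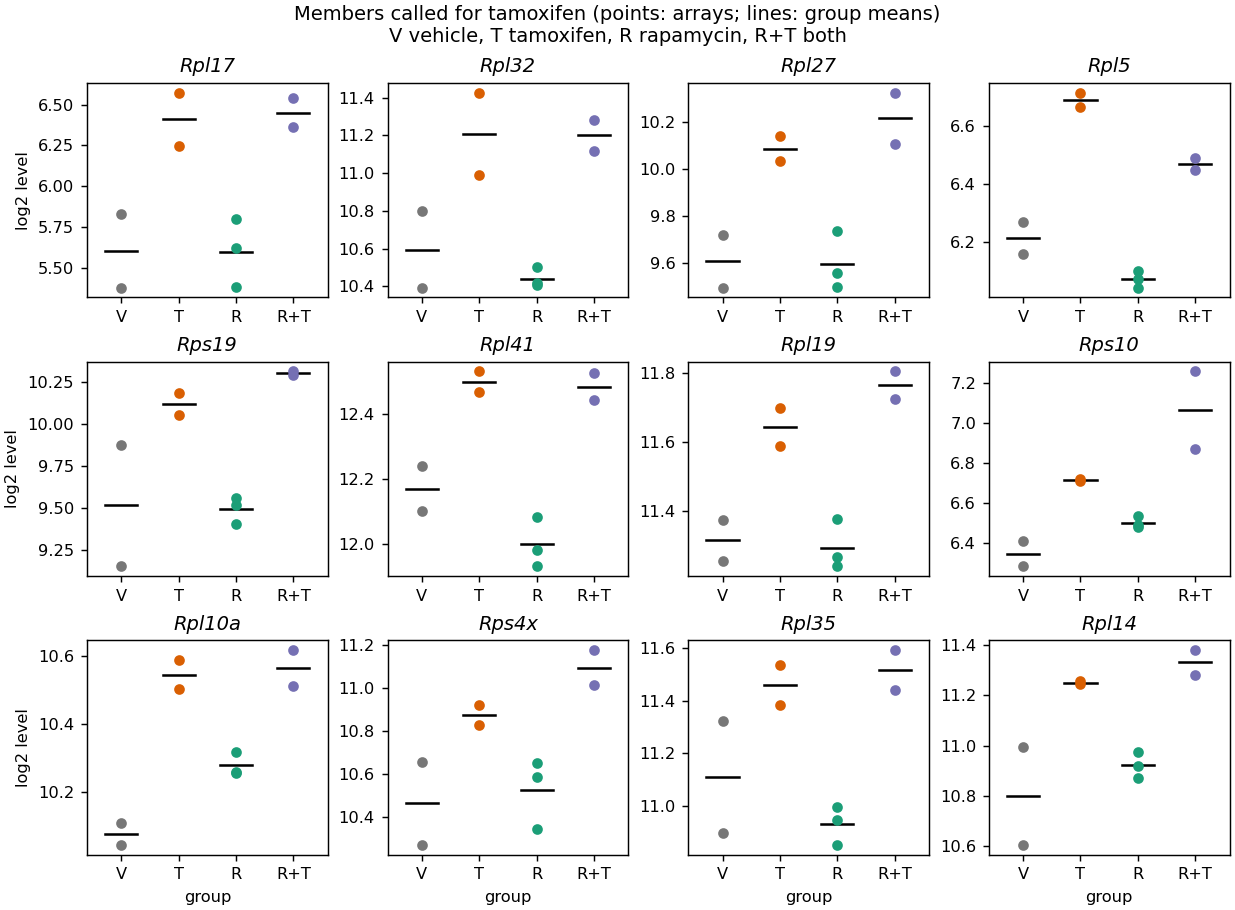
Log2 levels of the 12 ribosomal protein genes called for tamoxifen averaged over rapamycin, with 1 point for each array and a line at each group mean; each panel has its own axis, which does not start at 0. In all 12 panels the 4 tamoxifen-treated points lie above the 5 others, as for Rpl17, from 6.25 against at most 5.83. The 12 genes were picked by a test on these same arrays.

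Markers of gastric cell types moved with the same contrast. The mean of the 8 parietal markers, which include both subunits of the proton pump, lay between 10.67 and 10.93 on the arrays without tamoxifen and between 9.10 and 9.71 on those with it, and 8 of 8 fell (tamoxifen averaged, limma). Of 5 chief-cell markers 4 fell, with a list mean of 11.11 to 11.47 without the drug and 9.60 to 10.25 with it. In the neck mucous and smooth muscle lists 1 marker each fell, and in the endocrine list 1 rose and 1 fell. In the pit mucous, mast and lymphocyte lists none was called. Of all 22180 genes, 719 were called higher and 579 lower in this contrast. All 9 cell-cycle markers measured rose, from a list mean of 6.94 to 7.52 without the drug to 8.07 to 8.69 with it. The 10 squamous forestomach markers had a mean of 4.65 and 4.25 on the vehicle arrays, 9.49 and 4.23 on the tamoxifen arrays, 9.72, 8.35 and 4.88 on the rapamycin arrays and 8.95 and 9.15 on the combination arrays. The tamoxifen and the rapamycin arrays each held high and low values, but both combination arrays lay above both vehicle arrays. With this squamous mean as a covariate 6 members were called at a median change of 0.40. Of the 12 genes, 4 kept their call in that fit, Rpl17, Rpl32, Rpl27 and Rps19. Some markers lay near the bottom of the scale, such as Sprr3 at 2.52 and 2.78 on the vehicle arrays. The part of parietal and chief cells and of proliferation in the change of the ribosomal protein genes was not tested.

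Rapamycin alone against vehicle asked whether inhibiting mTORC1 for 10 days changed the levels of these RNAs in the undamaged stomach. No member was called, with 0.0496% of all genes called, and no direction prevailed: 24 changes were positive and 37 negative, with a median of -0.02, the same as for all genes. At an unadjusted p under 0.05, 3 were higher and 1 lower, against 4.31% and 4.6% of all genes. Rpl30, a large-subunit protein, had levels of 4.93 and 4.64 with vehicle and 4.45, 4.40 and 4.15 with rapamycin, without overlap (change -0.45 ± 0.157, limma adjusted p = 0.495). The other 3 were Rps26 (0.40 ± 0.167), Rps27 (0.58 ± 0.252) and Rpl28 (0.42 ± 0.182), with limma adjusted p from 0.543 to 0.559. The sign of the median turned on the vehicle arrays, at -0.24 without vehicle 1 and 0.14 without vehicle 2.

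In the damaged stomach, the combination against tamoxifen alone gave 0 members called and 0% of all genes called. There 29 changes were positive and 32 negative, with a median of -0.01. At an unadjusted p under 0.05, 3 were higher and 1 lower, against 2.36% and 3.31% of all genes. Rps18 had levels of 7.91 and 7.55 with tamoxifen and 8.24 and 8.24 with both drugs (0.51 ± 0.162, limma adjusted p = 0.814). Rpl22, an RNA-binding protein not needed for translation itself, stood at 6.33 and 5.76 against 6.53 and 6.58 (0.51 ± 0.213, limma adjusted p = 0.814). Rps16 had lower levels with both drugs, 4.61 and 5.05, than with tamoxifen, 5.23 and 5.26 (-0.42 ± 0.179, limma adjusted p = 0.814). Rpl39l differed by 0.61 ± 0.224 at the same adjusted p.

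Averaged over tamoxifen, rapamycin gave 27 positive and 34 negative changes, 0 called (0.0496% of all genes) and 7 higher against 1 lower at an unadjusted p under 0.05 (5.64% of all genes higher and 7.42% lower). The smallest p belonged to Rpl30 (-0.34 ± 0.117, limma adjusted p = 0.342), followed by Rpl22 (0.41 ± 0.144), Rps18 (0.31 ± 0.11) and Rpl39l (0.41 ± 0.152). In 0 members did the 5 arrays with rapamycin all lie above or all below the 4 without, against 1.53% and 1.88% of all genes. The 95% interval of the rapamycin change lay wholly within 0.5 log2 units of 0 for 33 of 61 members, so a larger change was within the error for the other 28. For 44 of 61 the interval excluded a fall of 0.5 or more. The median half-width of these intervals was 0.30.

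**Figure D3:**
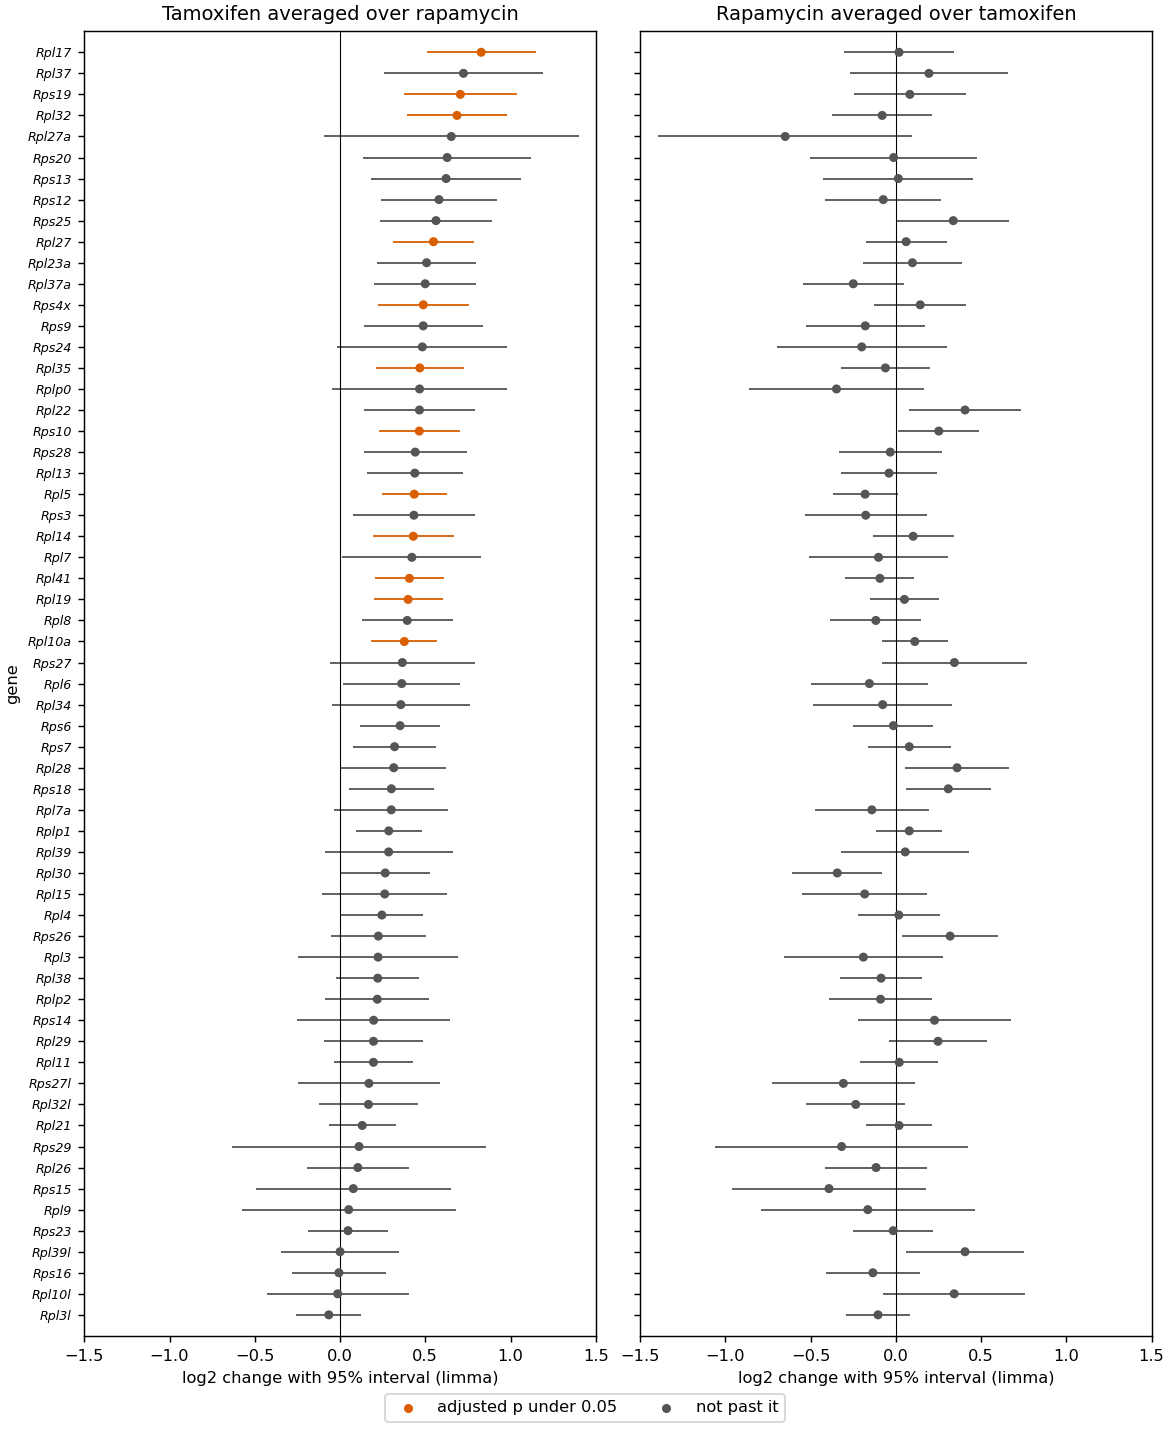
Log2 change of each of the 61 ribosomal protein genes with its 95% interval from limma, for tamoxifen averaged over rapamycin (left) and for rapamycin averaged over tamoxifen (right), with genes in the same order and orange marking an adjusted p under 0.05. On the left 58 of 61 points lie right of 0 and 12 are orange, and on the right 27 lie right of 0 and 34 left of it, with none orange.

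With both drugs against vehicle, 52 of 61 changes were positive, with a median of 0.33, and 23 were higher and 0 lower at an unadjusted p under 0.05, against 6.31% of all genes higher and 7.41% lower. No member was called (1.15% of all genes). In 36 members both combination arrays lay above both vehicle arrays and in 1 below, against 19.3% of all genes above and 24.8% below. The 10 squamous forestomach markers also lay higher on both combination arrays, at a median change of 4.18. The part of forestomach tissue in this comparison was not tested. Among the members, Rps10 came nearest to a call, at 6.28 and 6.41 with vehicle and 6.87 and 7.26 with both drugs (0.72 ± 0.155, limma adjusted p = 0.0789). Rps25 followed, with 8.14 and 7.69 against 8.74 and 8.89 (0.90 ± 0.214, limma adjusted p = 0.108), then Rpl22 (0.87 ± 0.213) and Rpl17 (0.85 ± 0.209). The median was 0.175 without vehicle 1 and 0.49 without vehicle 2, and the count called was 1 without vehicle 2 and 3 without either tamoxifen array.

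The interaction, the tamoxifen change with rapamycin minus that without it, tests whether rapamycin altered the response. No member was called and 0% of all genes were, and at an unadjusted p under 0.05, 0 members were higher and 1 lower, against 1.27% and 1.56% of all genes. Its median over the members was 0.06, with 37 of 61 positive, and it was 0.26 without vehicle 1 and -0.14 without vehicle 2. Rps16 had the smallest p (-0.57 ± 0.242, limma adjusted p = 1). Its levels were 5.00 and 4.94 with vehicle and 5.23 and 5.26 with tamoxifen, and 5.20, 4.93 and 5.23 with rapamycin and 4.61 and 5.05 with both drugs. The next were Rps18 (0.40 ± 0.219), Rps13 (0.68 ± 0.387) and Rpl39l (0.41 ± 0.304). The interval of the interaction was wide, with a median half-width of 0.61, and lay within 0.5 of 0 for 2 members.

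By role, the stalk proteins that recruit translation factors differed in their precision. Rplp0 had levels of 8.69 and 9.62 with vehicle, 9.36 and 10.25 with tamoxifen, 9.09, 8.86 and 9.03 with rapamycin, and 9.35 and 9.19 with both drugs. Its vehicle arrays lay far apart, and its tamoxifen change of 0.47 ± 0.227 was not called (limma adjusted p = 0.343). Rplp1 was steadier, at 11.72 and 11.72, 11.94 and 11.90, 11.65, 11.78 and 11.71, and 12.13 and 12.04 in the same order of groups, a change of 0.29 ± 0.0853 (limma adjusted p = 0.0974). Rplp2 was dim, from 4.11 to 4.66 over all arrays, with a change of 0.22 ± 0.134 (limma adjusted p = 0.476).

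Rpl11, the partner of Rpl5 in the 5S particle, had levels of 5.00 and 5.06 with vehicle, 5.37 and 5.14 with tamoxifen, 5.10, 4.96 and 5.18 with rapamycin and 5.34 and 5.16 with both, and its change of 0.20 ± 0.101 was not called (limma adjusted p = 0.378). The Rpl11 arrays with and without tamoxifen overlapped, where those of Rpl5 did not. Rps6, whose protein is phosphorylated by S6 kinase when mTORC1 is active, stood at 12.26 and 12.59 with vehicle, 12.69 and 12.90 with tamoxifen, 12.47, 12.39 and 12.42 with rapamycin and 12.77 and 12.75 with both. Its tamoxifen arrays lay above the others without exception, at a change of 0.35 ± 0.103 (limma adjusted p = 0.0923), and its rapamycin change was -0.01 ± 0.103. The array reads Rps6 RNA, not the phosphorylation.

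Some ribosomal proteins have paralogs that replace them in certain tissues, and 5 members are such genes by a symbol ending in l: Rpl3l, of muscle, Rpl10l and Rpl39l, of the testis, Rps27l, a p53 target, and Rpl32l. Their tamoxifen changes had a median of 0.00, 3 of 5 were positive and 0 passed limma's test, also at an unadjusted p under 0.05. Rpl3 lay between 8.61 and 9.61 over the arrays, with its highest values on vehicle 2 (9.44) and tamoxifen 2 (9.61), and changed by 0.22 ± 0.206, while Rpl3l lay between 4.25 and 4.51 and changed by -0.07 ± 0.0837. Rpl39 lay between 4.37 and 5.14 (0.29 ± 0.166) and Rpl39l between 4.82 and 5.73 (0.00 ± 0.152). Rpl10l, near the bottom of the scale at 2.78 to 3.53, changed by -0.01 ± 0.184, and Rpl32l by 0.17 ± 0.128. None of these passed the test.

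Rps27, which differs from Rps27l by a few residues, stood at 6.07 and 5.64 with vehicle, 6.88 and 6.03 with tamoxifen, 6.28, 6.56 and 6.46 with rapamycin and 6.74 and 6.39 with both (tamoxifen averaged, 0.37 ± 0.187). Rps27l stood at 7.46 and 8.16, 7.54 and 8.18, 7.24, 7.34 and 7.56, and 7.56 and 7.78 (0.17 ± 0.184). On vehicle 2 and tamoxifen 2, Rps27l was high and Rps27 low. Rpl22 was likewise lower on those arrays, at 5.46 and 5.76, than on their partners, at 5.90 and 6.33. Its paralog Rpl22l1, outside the symbol pattern, was at 5.09 on vehicle 2 and 4.98 on tamoxifen 2, against 5.79 to 6.40 on the other 7 arrays. Rps4x, the X-linked form of a small-subunit protein, rose by 0.49 ± 0.118 (limma adjusted p = 0.0475).

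Members with a TOP start were set beside those without, with no test of the difference. Averaged over rapamycin, tamoxifen changed the 11 by a median of 0.32, with 11 of 11 positive and 3 called, the 37 without the motif by 0.40, with 34 positive and 7 called, and the 13 with no RefSeq entry by 0.29, with 13 positive and 2 called. For rapamycin averaged over tamoxifen the medians were -0.01, -0.04 and -0.01. Rps10, Rpl14 and Rpl35, whose starts are printed above, rose with tamoxifen by 0.46, 0.43 and 0.47. Rpl15, with the longest run, changed by 0.26 and Rplp2, with the shortest, by 0.22, and neither was called. By subunit, the small-subunit members had a median tamoxifen change of 0.40 (3 of 22 called) and the large-subunit members one of 0.36 (9 of 39 called). For all these counts of calls, the share of all genes called higher was 3.24%.

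Other genes of the pathway were taken as lists. Of 17 other known TOP transcripts, which encode translation factors and RNA-binding proteins, 3 rose with tamoxifen averaged over rapamycin and none fell, against 3.24% of all genes called higher, with a median of 0.29. They were Nap1l1 (0.83 ± 0.101, limma adjusted p = 0.00208), a histone chaperone, Npm1 (0.86 ± 0.113, limma adjusted p = 0.00291), a nucleolar chaperone, and Eef1g (0.49 ± 0.113, limma adjusted p = 0.0385), a subunit of the elongation factor. Of 19 ribosome assembly genes 13 rose and none fell, against the same 3.24% of all genes, with a median of 0.68. Among these Nop58 rose by 0.95 ± 0.117, Dkc1 by 0.93 ± 0.146 and Wdr12 by 0.85 ± 0.113, with limma adjusted p from 0.00208 to 0.00664. For the 61 ribosomal protein genes the median was 0.36, and the difference between the lists was not tested.

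Ribosomes of mitochondria use another set of proteins, and of 71 such genes 4 rose, Mrpl19, Mrpl3, Mrps22 and Mrps27, a share near the 3.24% of all genes called higher, with a list median of 0.14. Of 10 genes of mTORC1 and its translation targets, Eif4e, the cap-binding factor, rose by 0.43 ± 0.0846 (limma adjusted p = 0.02) and Mtor fell by 0.55 (SE 0.105, limma adjusted p = 0.0174), and the list median was 0.06. Of 4 ribosomal proteins outside the pattern, 0 were called and 3 were higher at an unadjusted p under 0.05 (limma), against 9.17% of all genes. Their median was 0.33. With both drugs against tamoxifen alone, 0 of 19 assembly genes had a positive change, at a median of -0.26, with 0 called by limma and 4 lower at an unadjusted p under 0.05, where the ribosomal protein genes had 29 of 61 positive and a median of -0.01. Of all genes in that comparison 0% were called, 3.31% were lower at an unadjusted p under 0.05 (limma) and 45.9% had a positive change. The median of all genes was -0.02.

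**Figure D4:**
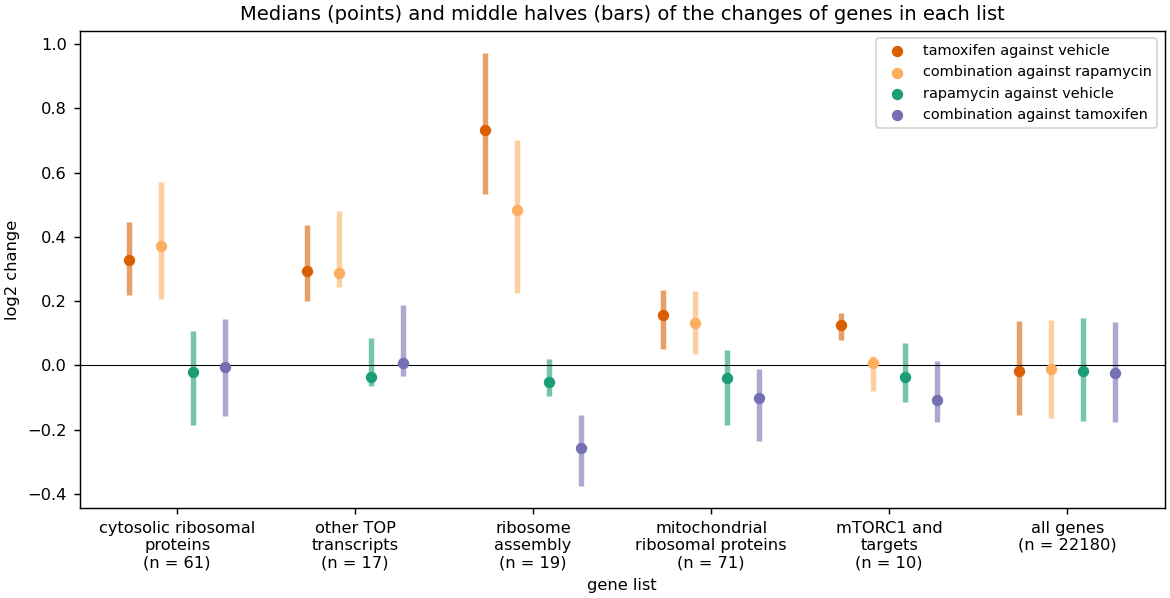
Median log2 change (points) and the middle 50% of genes (bars) for the ribosomal protein genes, 4 related lists and all genes, in 4 comparisons of whole-stomach groups shown by colour; tamoxifen against vehicle and rapamycin against vehicle share the vehicle arrays. Ribosomal protein genes lie at 0.33 and 0.37 in the comparisons for tamoxifen and at -0.02 and -0.01 in those for rapamycin, and assembly genes at 0.73 and 0.48 and at -0.05 and -0.26.

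The cell fractions, with 1 array each, allow no test, and every value compares these samples alone. The parietal fraction matched its label by its markers, with a list mean of 9.23 against 5.51 in the other cells. It held low values for endocrine markers (4.33 against 9.09) and mast-cell markers (3.01 against 8.44). Its list means were also lower for chief (5.87 against 7.75), neck mucous (6.46 against 10.22) and cell-cycle markers (3.72 against 5.43). Of the 9 cell-cycle markers 2 were higher in it. Pit mucous markers were lower but still high (10.64 against 12.60), and smooth muscle markers were low in both fractions (4.03 and 3.75), as were lymphocyte markers (2.65 and 3.12). Ribosomal protein genes were lower in the parietal fraction for 53 of 61, with a median difference of -0.57, against 0.03 for all genes. At least 1 log2 unit lower were 10 members, against 6.46% of all genes, and 0 were at least 1 unit higher, against 6.32%. With a limit of 0.5, 34 were lower and 2 higher, against 15.6% and 19.1% of all genes. Among the 2218 genes above the 90th percentile of level in the fractions, 44.4% were lower in parietal cells, with a median of 0.10, while 34 of the 35 members among them were lower, with a median of -0.70.

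The largest differences downwards were those of Rpl30 (2.36 in parietal cells, 4.19 in the others, -1.83), Rpl37a (8.09 and 9.88, -1.79) and Rps19 (8.78 and 10.51, -1.73). Rps15 (-1.49), Rps26 (-1.30) and Rps4x (-1.13) came next. Rpl30 and Rps15 are dim, and Rps19, Rps26 and Rps4x are bright, so both sets were represented. Higher in parietal cells were Rpl39 (4.04 and 3.27, 0.77), Rps7 (5.97 and 5.47, 0.50), Rps16 (4.45 and 4.03, 0.42), Rps27 (0.25), Rpl5 (0.21) and Rpl3l (0.16). All 6 of these are dim. Of the bright members 30 of 31 were lower in parietal cells, with a median of -0.70, and the exception was Rpl3 (0.13), while 23 of the 30 dim members were lower, with a median of -0.31. The Rpl3 exception holds for the kept probe set only, at 6.74 in parietal cells and 6.61 in the others. Another Rpl3 set was lower in parietal cells, at 7.28 against 8.56, and a further dim one stood at 3.09 and 3.12.

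Of the genes named by role, Rplp0 stood at 7.68 in parietal cells and 8.63 in the others, Rplp1 at 11.93 and 12.63, Rplp2 at 4.04 and 4.84, and Rps6 at 11.26 and 11.85. Rpl11 stood at 3.82 and 4.14 and Rpl22 at 5.73 and 6.66. Each was lower in parietal cells. The paralogs differed little, with a median of -0.08 over the 5. Other TOP transcripts were lower in parietal cells for 17 of 17, at a median of -0.39. Mitochondrial ribosomal proteins leaned the other way, at a median of 0.33 with 21 of 71 lower, and assembly genes had a median of 0.03.

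**Figure D5:**
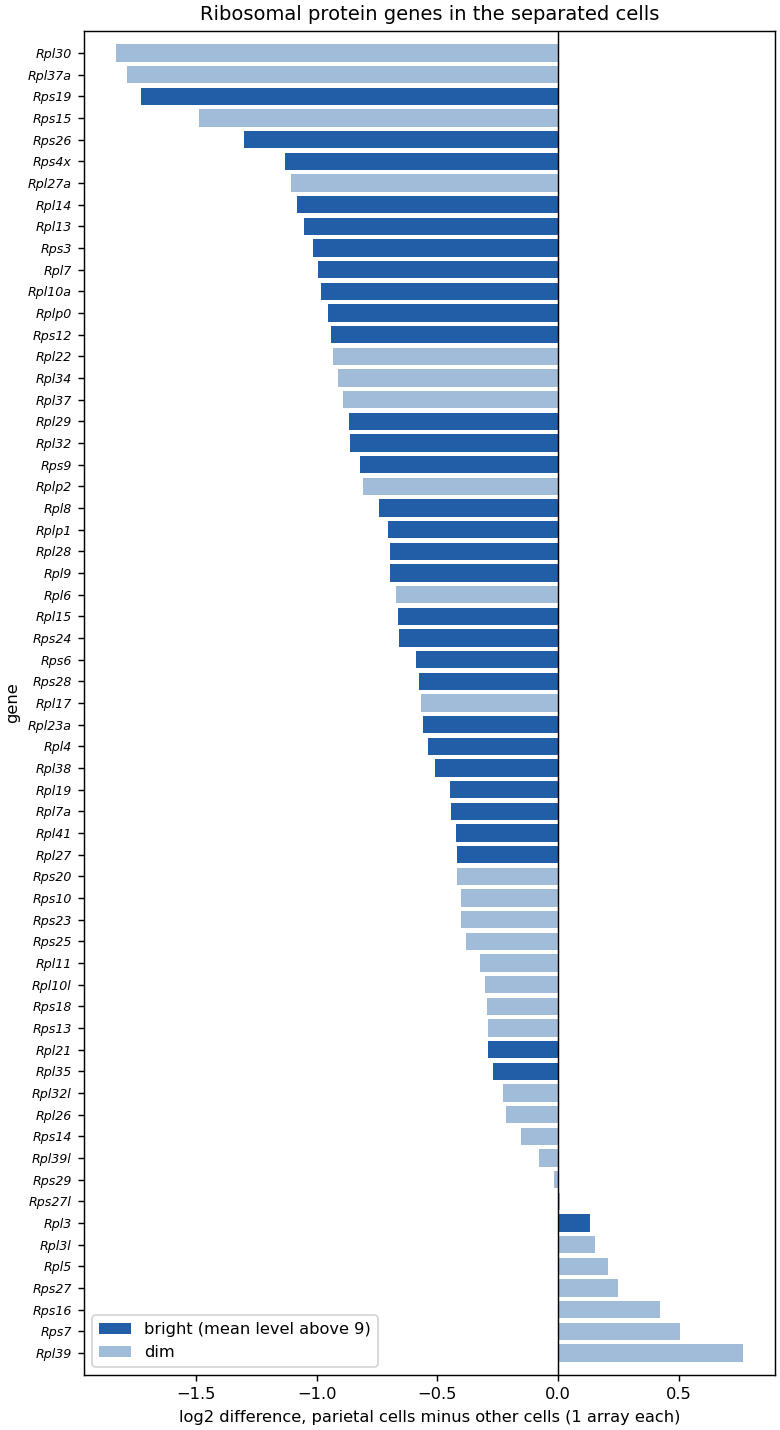
Log2 difference, parietal fraction minus the other stomach cells, for each of the 61 ribosomal protein genes, from 1 array each and therefore without error bars; dark bars are the 31 genes with a whole-stomach level above 9. Bars run from -1.83 for Rpl30 to 0.77 for Rpl39, with 53 of 61 left of 0.

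The fractions and the tamoxifen change can be set side by side, since tamoxifen arrays held lower parietal markers. Across the 61 members the fraction difference and the averaged tamoxifen change had a Pearson correlation of -0.36 and a Spearman correlation of -0.40. Across all 22180 genes the values were -0.319 and -0.242. These are descriptions across genes, which are not independent and share the same arrays. Rps19 combined a difference of -1.73 between fractions with a tamoxifen change of 0.71, while Rpl30, at -1.83, had one of 0.26 and Rpl5, at 0.21, one of 0.44. The part of a changed cell mix in these values was not tested.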

How the data were processed

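The authors deposited log2 expression values, and the submitters' processing notes name RMA and Partek, with versions and settings that were not given in the sources used here. Of 41345 probe sets, 23521 named 1 gene, 1814 several and 16010 none. The probe set of highest whole-stomach mean was kept for each of 22180 genes and dim ones stayed in, so all 61 members were tested. Limma 3.58.1 in R 4.3.3 fitted 1 mean for each whole-stomach group with a shared spread (5 residual degrees of freedom, prior 3.86), and calls required a Benjamini-Hochberg adjusted p under 0.05 over all genes. The script was tested on simulated data. There a true change of 0.5 log2 units was recovered in 0% of the changed genes in each comparison simulated. A change of 1 was recovered in 42% to 83% of them. Only a small share of genes was changed in each simulation, and the adjustment of p is stricter where few genes change. These percentages therefore set no limit for the data, where Rpl10a was called at an averaged tamoxifen change of 0.38. Fractions were compared by the log2 difference with no test. The number of arrays limits the precision.

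Members and lists were chosen with earlier results of these data known. Named were the stalk, 5S, S6 and paralog genes, the called members up to the 6 of smallest p, 4 by smallest p in comparisons with fewer than 4 calls, and the 6 largest fraction differences each way. Alternatives covered normalization, dim probe sets, probe-set choice, variance model, samples in the fit, a forestomach covariate, the replicate number as a block and leaving out arrays.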

Additional observations from a re-analysis of the deposited data

How the results depend on the processing

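With the arrays quantile-normalized again, members called in the combination against rapamycin came to 2, with limma's trend and robust options to 4, and in a fit of the compared groups alone to 13. Restricting the test to genes above the median level tested fewer genes and called 2 members with tamoxifen against vehicle and 2 in the combination against vehicle. It called 9 in the combination against rapamycin and 21 for tamoxifen averaged over rapamycin. That last count was 12 as reported, 5 after median centring and 6 with the forestomach mean as a covariate. Wherever a count of members comes from a fit other than the main one, the share of all genes called in it is not given. Replicate numbers were not taken to pair the arrays: over all genes, deviations of the arrays numbered 1 correlated at 0.561 between vehicle and tamoxifen (0.853 over the members) and at 0.408 between tamoxifen and rapamycin, but between -0.112 and 0.00597 for the other 4 pairs of groups. Tamoxifen 1 minus vehicle 1 had a member median of 0.44 (58 positive) and tamoxifen 2 minus vehicle 2 one of 0.23 (50 positive). Vehicle 2 and tamoxifen 2 also held identical values for several members, and the main fit took no account of it. The fit with the replicate number as a block called 3 members for tamoxifen averaged over rapamycin, Rpl17, Rpl32 and Rpl27, all among the 12.

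Leaving out 1 array at a time gave 0 to 1 members called and medians of 0.16 to 0.49 for tamoxifen against vehicle. For rapamycin against vehicle the medians were -0.24 to 0.14. For the combination against vehicle 0 to 3 were called, with medians of 0.175 to 0.49. For the combination against rapamycin 0 to 4 were called, the interaction had medians of -0.14 to 0.26, and tamoxifen averaged over rapamycin had 1 to 19 called. Leaving out vehicle 2 and tamoxifen 2 together, chosen after seeing the data, gave 13 called for the combination against rapamycin, 22 for tamoxifen averaged, 1 for the combination against vehicle with a median of 0.49, and a median of 0.14 for rapamycin against vehicle. With the mean of all its probe sets, Rps26 changed sign for rapamycin against vehicle (-0.10, limma adjusted p = 0.812). A threshold of 0.5 in place of 1 put 34 members lower in the parietal fraction. The cause of these shifts was not tested. Few arrays and dim probe sets limit what can be detected: the median 95% half-width of a member's change was 0.45 for tamoxifen against vehicle.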

Other observations

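Probe sets left out of the 61 genes gave further values. The 57 probe sets that name a ribosomal protein gene together with other genes had a median tamoxifen change, averaged over rapamycin, of 0.29, with 53 positive, and a median rapamycin change of 0.07, with 36 positive. Between the fractions 43 of the 57 were lower in parietal cells, at a median of -0.42. The 15 probe sets that name a ribosomal protein pseudogene alone had a median tamoxifen change of 0.13, with 10 positive. Of the 23 members with several probe sets, 39 sets were not kept, and 34 of these had a positive tamoxifen change, with a median of 0.38 against 0.42 for the kept ones. Levels of probe sets of 1 gene differed by up to 8.26 log2 units. Rps26 was measured at a mean of 11.53 by the kept set (tamoxifen change 0.22) and at 3.27 by the other (-0.55). Rpl3 had changes of 0.22, 0.99 and -0.12 over its 3 sets. Of the called genes, Rpl41 had a dimmer set with a change of -0.175, while its other sets rose. Rps19 had a dimmer set with a change of -0.0034. In Rpl23a, Rps12 and Rps19, 10 probe sets held values identical to another set of the same gene. Such copies are counted among the 39 sets not kept and the 34 positive ones, which are therefore not all separate readings.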
